A study of Saccharomyces cerevisiae with 6 samples.

Results

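Trehalose is a disaccharide of glucose that budding yeast stores and that shields proteins and membranes under heat, drying and oxidative stress. Cells make it from UDP-glucose and glucose 6-phosphate through trehalose 6-phosphate, on one enzyme complex, and break it down to glucose with trehalases. The activity of the neutral trehalases is set largely by phosphorylation, so a transcript ratio does not give the flow through the pathway. The genes described here are the 4 genes of the synthase complex, TPS1, TPS2, TPS3 and TSL1, and the 3 trehalase genes NTH1, NTH2 and ATH1. They were found by gene symbol in the platform annotation of the arrays. All 7 had 1 probe each and a value on every array, and they are 7 of 5693 features tested, of which 5218 carried a gene name.

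The arrays compared mRNA of Saccharomyces cerevisiae strain S288C treated with 35 ppm paraquat for 2 h with mRNA of cultures of the same strain left without the compound for the same time. Paraquat (methyl viologen dichloride hydrate) cycles electrons to oxygen and so forms superoxide inside the cell. It was given to cultures in exponential growth in glucose-containing YPD medium at 25 °C, and the untreated cultures were grown in that medium and at that temperature too. Each of 3 hybridisations used an independent biological sample and was read with both a high and a low laser setting, which gives 6 scans and 3 replicates, called arrays 1, 2 and 3 below. Treated cDNA carried Cy5 and untreated cDNA Cy3 on every array, so that dye and treatment cannot be told apart, and all samples are of one strain at one dose and time.

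Values are log2 ratios of treated over untreated, the mean of both scans of an array where both gave a value. No source used here states the logarithm's base or which channel was divided by which. Base 2 and treated over untreated follow the repository's convention and the labels' channel order, which makes the direction likely, and with the opposite direction every sign, order and percent of untreated below would turn. The ratios were LOWESS-normalised, so each is relative to the other mRNAs on the array, and a change common to all mRNAs would not appear. Arrays give ratios and no levels per gene, so the abundance of one gene is not set against that of another, and fewer cells with a transcript and less transcript per cell cannot be told apart. Precision is limited by having 3 arrays, and the standard error of a feature had a median of 0.20. Across the 5693 features, which are not independent replicates, Pearson r between arrays was 0.164 for arrays 1 and 2, 0.217 for arrays 1 and 3, and 0.0254 for arrays 2 and 3.

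TPS1, which encodes the trehalose 6-phosphate synthase, and ATH1, which encodes the acid trehalase, had the lowest ratios among the 7 genes, taken as treated over untreated. Both were below 0 on all 3 arrays, and their treated level was estimated at 69.5% and 70.2% of the untreated level. With the ratio the other way round these would be 143.9% and 142.4%, the highest of the 7. TPS2 and NTH1 were also below 0 on every array, but closer to 0, while TPS3, TSL1 and NTH2 took both signs. None of the 7 passed the threshold of 0.05 on the adjusted p of limma, a linear model that borrows the variance across features, with Benjamini-Hochberg adjustment over all features tested. In that fit 2 features of 5693 were higher, or 0.0351%, and 0 were lower, or 0%. At an unadjusted p at or under 0.05 limma placed 0 of the 7 genes higher, against 5.48% of all features, and 2 lower, against 5.29%.

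TPS1 catalyses the first step, the joining of glucose from UDP-glucose to glucose 6-phosphate, and its product restrains hexokinase and so the entry of glucose into glycolysis. It stood at -0.36, -0.69 and -0.52 on arrays 1, 2 and 3, all below 0. Every one of its 6 scans was below 0 as well, between -0.73 and -0.35. The mean was -0.53 ± 0.17 (SD, n = 3 arrays; 95% interval -0.93 to -0.12), with an unadjusted limma p of 0.0142 and an adjusted p of 0.331. In percent of the untreated level the interval runs over 52.4% to 92.2%, or 108.4% to 191.0% with the direction turned. Among all features tested this mean lay at percentile 2.64, or 97.4 with the direction turned.

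TPS2 encodes the trehalose 6-phosphate phosphatase, which releases trehalose. Its values were -0.084, -0.25 and -0.31 on arrays 1, 2 and 3. All 3 were negative, although on array 1 the high power scan gave 0.044 and the low power scan -0.21. The mean was -0.22 ± 0.12 (SD, n = 3 arrays; 95% interval -0.62 to 0.19; limma adjusted p = 0.748). Probe numbers hold fields that may reflect where a spot lies on the array. An additive trend over those fields held 14.4%, 18.7% and 9.98% of the variance over tested features on arrays 1, 2 and 3. With that trend taken out of each array the mean of TPS2 was -0.040.

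TPS3 and TSL1 are paralogs that encode the large, non-catalytic subunits of the complex, to which regulatory and structural roles are ascribed. TPS3 was at 0.13, -0.45 and -0.063 on arrays 1, 2 and 3, and TSL1 at 0.29, -0.18 and -0.35. Array 1 was the one with a positive value for both. The means were -0.13 ± 0.30 for TPS3 and -0.079 ± 0.33 for TSL1 (SD, n = 3 arrays), with limma adjusted p of 0.878 and 0.941, and 95% intervals of -0.55 to 0.29 and -0.50 to 0.34. The spread over arrays exceeded the mean in both.

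The scans of one array also differed for these subunits. On array 2, TPS3 had -0.24 at high and -0.67 at low power, while TSL1 had -0.39 at high and 0.035 at low power. Those gaps of 0.424 each compare with a median gap of 0.143 over the 2674 tested features with both scans on array 2. On array 1 the scans of TSL1 were 0.378 apart, against a median gap of 0.201 over 2267 features. TSL1 minus TPS3, taken within an array, was 0.16, 0.28 and -0.29, with a mean of 0.049 ± 0.30 (SD, n = 3 arrays). The difference changed sign between arrays, and an exact two-sided sign-flip permutation test gave p = 1, where 0.25 is the smallest that 3 arrays allow.

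**Figure D1:**
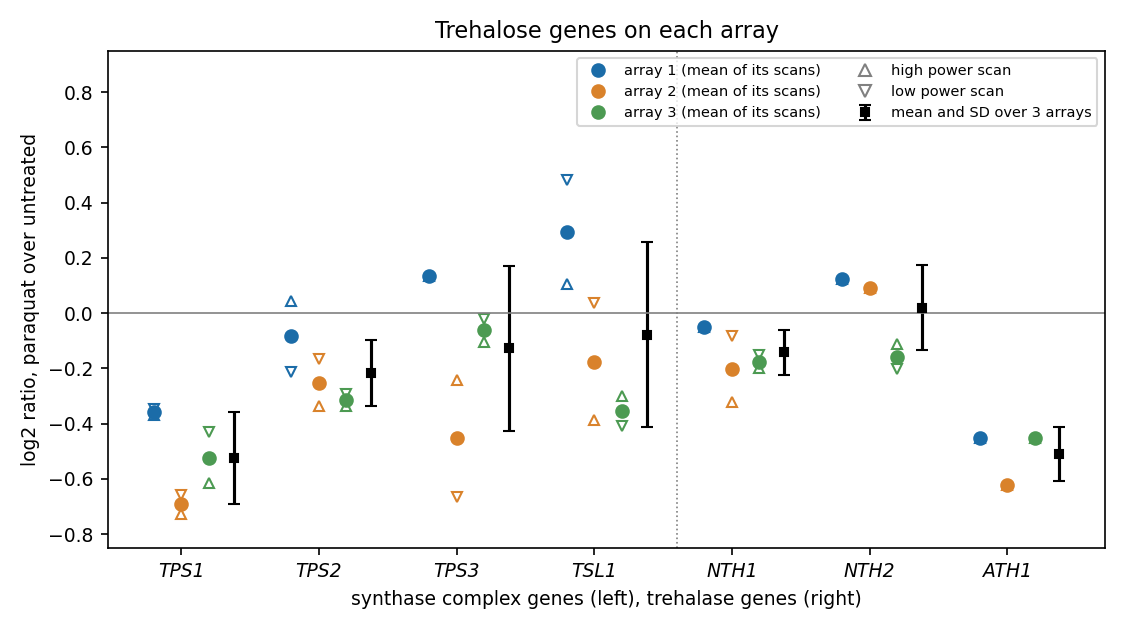
Log2 ratio of paraquat-treated over untreated cultures (vertical axis) for the 4 synthase complex genes and the 3 trehalase genes (horizontal axis). Filled circles are arrays 1, 2 and 3, open triangles their high (pointing up) and low (pointing down) power scans, and black squares the mean with the SD over 3 arrays. TPS1 and ATH1 lie below -0.35 on every array, while TSL1 runs over -0.35 to 0.29.

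NTH1 encodes the main neutral trehalase of the cytosol, which protein kinase A activates by phosphorylation. It was at -0.050, -0.20 and -0.18 on arrays 1, 2 and 3, all slightly negative. The mean was -0.14 ± 0.081 (SD, n = 3 arrays; 95% interval -0.55 to 0.26; limma adjusted p = 0.853). NTH1 had the smallest SD of the 7 genes. Its interval still spans 68.4% to 119.9% of the untreated level, or 83.4% to 146.1% with the direction turned. With the probe-number trend taken out its mean was -0.056.

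NTH2, the paralog of NTH1, encodes a second neutral trehalase. It had values of 0.12, 0.090 and -0.16 on arrays 1, 2 and 3, with a low power value on array 3 alone. It was the one gene of the 7 with a mean above 0, at 0.019 ± 0.15 (SD, n = 3 arrays; 95% interval -0.39 to 0.43; limma adjusted p = 0.981). NTH1 was below NTH2 on all 3 arrays. NTH1 minus NTH2 was -0.17, -0.29 and -0.018, with a mean of -0.16 ± 0.14 (SD, n = 3 arrays; exact two-sided sign-flip permutation p = 0.25, the smallest that 3 arrays allow). The paralogs are similar in sequence and the probe sequences were not used here, so their values may not be fully separate measurements.

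ATH1 encodes the acid trehalase, which acts outside the cytosol and lets cells grow on trehalose from the medium. Its values were -0.45, -0.62 and -0.45 on arrays 1, 2 and 3. The 3 arrays lay close together and all below 0. The mean was -0.51 ± 0.099 (SD, n = 3 arrays; 95% interval -0.91 to -0.10), with an unadjusted limma p of 0.0162, an adjusted p of 0.350 and percentile 2.82 of all features, or 97.2 with the direction turned. ATH1 had values in the high power scans alone, so that no second scan checks them. In percent of the untreated level its interval runs over 53.0% to 93.0%, or 107.5% to 188.5% with the direction turned.

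Without array 2, 0 of the 7 genes had an unadjusted limma p at or under 0.05. Of all 5693 features, 347 were higher and 263 lower at that level without array 2. TPS1 then had a mean of -0.44 with an unadjusted limma p of 0.0983. ATH1 had a mean of -0.45 with an unadjusted limma p of 0.0900. That fit gave all features a common standard error of 0.27, against 0.20 for TPS1 in the fit of 3 arrays, so the larger p reflects both. With the probe-number trend taken out, TPS1 was at -0.48 (limma adjusted p = 0.506) and ATH1 at -0.50 (limma adjusted p = 0.484).

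**Figure D2:**
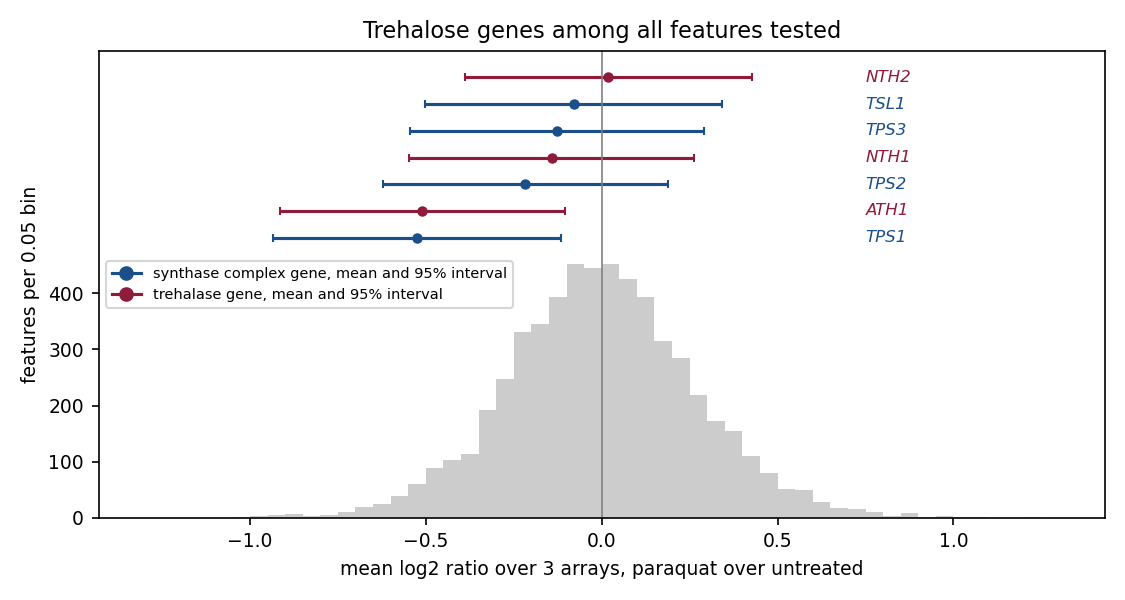
Histogram of the mean log2 ratio over 3 arrays of all 5693 features tested (horizontal axis, bars counted on the vertical axis in bins of 0.05), with the mean and 95% limma interval of each trehalose gene drawn above it, where height has no meaning. The intervals of TPS1 and ATH1 end below 0, at -0.12 and -0.10, and those of the other 5 genes include 0.

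As a group, 6 of the 7 genes had a mean below 0, where 50.8% of all features did. On all 3 arrays together 4 genes were below 0 (TPS1, TPS2, NTH1 and ATH1), against 16.0% of all features, and 0 were above 0, also against 16.0%. The median of the 7 means was -0.14, and that of all features tested -0.0065. By array, 4, 6 and 7 of the genes were below 0 on arrays 1, 2 and 3, and their mean was -0.056, -0.33 and -0.29. Of the 4 values above 0, 3 came from array 1. With so few genes, chosen with earlier results of these arrays known, these shares are a description and were given no test.

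The difference between the synthesis and the breakdown genes took both signs among the arrays. The 4 synthase complex genes averaged -0.0037, -0.39 and -0.31 on arrays 1, 2 and 3, a mean of -0.24 ± 0.21. The 3 trehalase genes averaged -0.13, -0.24 and -0.26, a mean of -0.21 ± 0.075 (SD, n = 3 arrays each). Synthesis minus breakdown was 0.12, -0.15 and -0.051, or -0.026 ± 0.14. The larger distances lay within each set. TPS1 was the lowest of the complex genes on every array, with means of -0.31 ± 0.12 against TPS2, -0.40 ± 0.14 against TPS3 and -0.45 ± 0.25 against TSL1, and ATH1 was the lowest trehalase gene on every array, with -0.37 ± 0.078 against NTH1 and -0.53 ± 0.21 against NTH2 (SD, n = 3 arrays). These pairs were picked after their values were seen and carry no test.

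The order of the 7 means, lowest first, was TPS1, ATH1, TPS2, NTH1, TPS3, TSL1 and NTH2, and with the direction turned it would run from NTH2 as the lowest to TPS1 as the highest. TPS1 and ATH1 differed by far less than their SDs. From TPS2 to NTH2 each neighbour in the order also lay within the larger SD of the pair. The gap between ATH1, at -0.51, and TPS2, at -0.22, was wider than either SD.

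Genes that supply the substrates of trehalose synthesis had ratios below 0 throughout, and the differences between this list and the trehalose genes were not tested. The list held 7 genes of glucose phosphorylation, phosphoglucomutase and UDP-glucose formation, all measured. On all 3 arrays 7 were below 0, against 16.0% of all features. Limma called 0 at an adjusted p. At an unadjusted p at or under 0.05 it placed 5 lower, against 5.29% of all features. The median of the list was -0.57. Like the trehalose genes, this list and those below were chosen with earlier results of these arrays known, so their shares are a description. EMI2, a relative of the glucokinase gene GLK1, was at -0.86, -0.57 and -0.74 on arrays 1, 2 and 3 (limma adjusted p = 0.171). PGM2, the main phosphoglucomutase gene, was at -0.77, -0.86 and -0.51 (limma adjusted p = 0.179). Both were below -0.5 on every array.

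UGP1, which encodes the enzyme that forms the UDP-glucose used by TPS1, was at -0.25, -0.45 and -1.10 on arrays 1, 2 and 3. HXK1, a hexokinase gene, was at -0.19, -0.30 and -0.99, so array 3 carried much of both means. GLK1 itself was at -0.39, -0.59 and -0.72. The other 2 genes of the list, HXK2 and PGM1, had means of -0.16 and -0.20, with -0.010 and -0.080 on array 3. With the probe-number trend taken out their means were -0.052 and -0.047. Without array 3 the median of this list was -0.35. With the probe-number trend taken out the median was -0.52, and UGP1 had a mean of -0.45, against -0.60 as reported.

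Glycogen, the other storage carbohydrate, draws on the same UDP-glucose. Of 11 glycogen genes listed, 11 were measured and 9 had a mean below 0, against 50.8% of all features. On all arrays 5 were below 0 and 2 above 0, against 16.0% of all features for each. Limma called 0 at an adjusted p. At an unadjusted p at or under 0.05 it placed 3 lower and 0 higher, against 5.29% and 5.48% of all features. The median was -0.20, with -0.31 without array 1 and -0.13 without array 2. The glycogen phosphorylase gene GPH1 was at -0.55, -0.48 and -0.64, close together over the arrays. The glycogen synthase genes spread more, with GSY1 at -0.24, -0.46 and -0.82 and GSY2 at -0.93, -0.24 and -0.74. With the probe-number trend taken out, GPH1, GSY1 and GSY2 had means of -0.39, -0.51 and -0.42, against -0.56, -0.51 and -0.64 as reported. The highest of the list was GIP2, which encodes a protein related to glycogen-targeting subunits of protein phosphatase, at 0.43 ± 0.55, with 1.06 on array 1 against 0.11 and 0.12 on arrays 2 and 3.

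**Figure D3:**
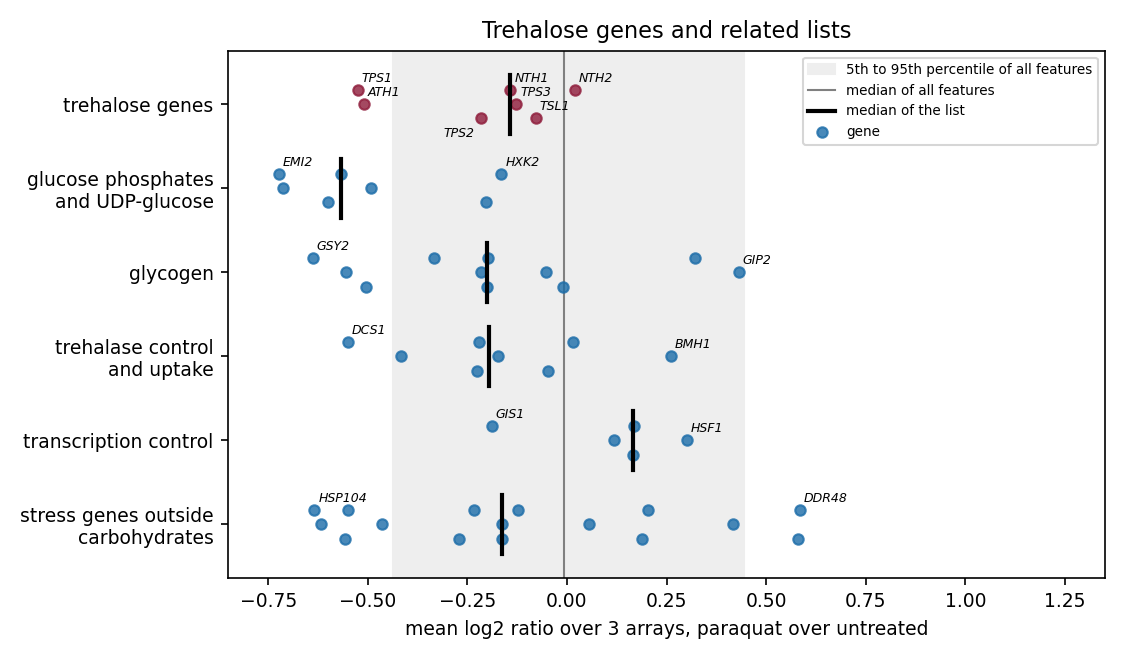
Mean log2 ratio over 3 arrays, paraquat-treated over untreated (horizontal axis), of each measured gene of the trehalose set and of 5 related lists (rows), with the median of each list as a black bar. The grey band covers the 5th to the 95th percentile of all features. TPS1, ATH1 and 5 of the 7 genes of glucose phosphates and UDP-glucose lie to its left. Genes of other lists lie there too, among them GSY2, GPH1, GSY1, DCS1, HSP104, CTT1, HSP42 and MSC1.

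Control and uptake were covered by 8 measured genes. Of the 8, 6 had a mean below 0, against 50.8% of all features. On all arrays 3 were below 0 and 1 above 0, against 16.0% of all features for each. Limma called 0 at an adjusted p. At an unadjusted p at or under 0.05 it placed 2 lower and 0 higher, against 5.29% and 5.48% of all features. The list median was -0.20, or -0.11 without array 3. DCS1, which encodes a decapping scavenger enzyme also described as an inhibitor of neutral trehalase, was at -0.63, -0.48 and -0.54 on arrays 1, 2 and 3 (limma adjusted p = 0.295). TPK3, a catalytic subunit gene of protein kinase A, was at -0.62, -0.29 and -0.34 (limma adjusted p = 0.462), and its mean of -0.42 was -0.23 on high power scans alone. BMH1 and BMH2, whose products bind phosphorylated Nth1, had means of 0.26 ± 0.15 and -0.22 ± 0.28. MAL11, the gene of a sugar permease that takes up trehalose, was at 0.016 ± 0.51 (SD, n = 3 arrays).

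Among genes for transcription factors and kinases that act on trehalose genes, all but HSF1 took both signs over the arrays. Of 6 listed, 5 were measured and RIM15 was not analysed here. MSN2 and MSN4, the activators of the general stress response, were at 0.56, 0.18 and -0.39, and at 0.79, 0.15 and -0.43, on arrays 1, 2 and 3. HSF1, the heat shock factor gene, was the one gene of this list with a single sign, at 0.28, 0.29 and 0.34 (limma adjusted p = 0.617). GIS1, an activator used after the diauxic shift, was at 0.47, -0.49 and -0.55. YAK1, a kinase gene, had a mean of 0.17 ± 0.42. Limma called 0 of the 5 at an adjusted p and 0 at an unadjusted p at or under 0.05. Of all features 5.29% were lower and 5.48% higher at that unadjusted p. The list median was 0.17, or -0.10 without array 1. MSN2, MSN4 and YAK1 are given here beyond the naming rule, after their values were seen.

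Genes of the general stress response outside carbohydrate metabolism took both directions. All 16 listed were measured, 10 with a mean below 0, against 50.8% of all features. On all arrays 7 were below 0 and 3 above 0, against 16.0% of all features for each. The list median was -0.16, with -0.25 without array 1, -0.10 without array 2 and -0.087 with the probe-number trend taken out. Limma called 0 at an adjusted p. At an unadjusted p at or under 0.05 it placed 4 lower and 2 higher, against 5.29% and 5.48% of all features. HSP104, which encodes a disaggregase that works beside trehalose in heat tolerance, was at -0.82, -0.29 and -0.79 on arrays 1, 2 and 3. MSC1 was at -0.49, -0.61 and -0.55, a profile close to that of ATH1. The small heat shock gene HSP42 had a mean of -0.56 ± 0.40 and the catalase gene CTT1 of -0.62 ± 0.53. Without array 3 these means were -0.34 and -0.32, and with the probe-number trend taken out -0.34 and -0.65. DDR48 and the cell wall protein gene SPI1 lay on the other side, with means of 0.58 ± 0.20 and 0.58 ± 0.30 (SD, n = 3 arrays).

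Likeness of profile was measured as the Euclidean distance between log2 ratios on the 3 arrays, over the 5218 named features. The mean profile of the 4 synthase complex genes was nearest to PRE2, a proteasome subunit gene, at a distance of 0.0502. It was followed by the glycogenin gene GLG1 at 0.0650, EAR1 at 0.0744, FCF2 at 0.0780 and NTR2 at 0.0809. For TPS1 alone the nearest were TPN1 at 0.115, MRX18 at 0.134 and ATH1 at 0.135. ATH1 was nearest to MSC1 at 0.104, MRX18 at 0.110 and the quinone reductase gene ZTA1 at 0.119. MRX18 was thus among the 3 nearest of both TPS1 and ATH1, while TSL1 was nearest to COG6, RHO1 and BUD5, at 0.0581 to 0.0724.

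The genes nearest to the others came from varied functions. TPS2 was nearest to PEX6, YOR385W and GPI10, at 0.0197 to 0.0456, and TPS3 to KAP120, ADE8 and VPS29, at 0.0407 to 0.0593. NTH1 was nearest to LRS4, SIN3 and PTC2, at 0.0154 to 0.0501, and NTH2 to PAP1, TOS2 and HST1, at 0.0313 to 0.0506. These distances rest on 3 values per gene.

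**Figure D4:**
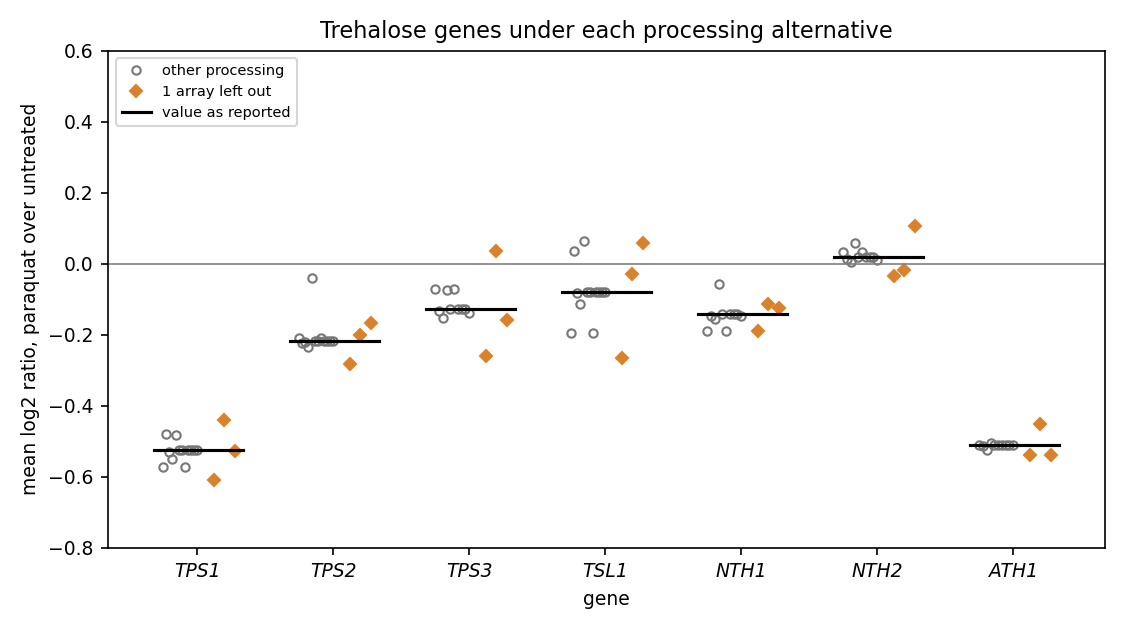
Mean log2 ratio of paraquat-treated over untreated cultures (vertical axis) of each trehalose gene (horizontal axis) as reported (black line), with 1 array left out (diamonds) and under the other processing alternatives (open circles). TPS1 stays between -0.61 and -0.44 and ATH1 between -0.54 and -0.45, while TPS3, TSL1 and NTH2 fall on both sides of 0.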

How the data were processed

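Treated cultures were set against untreated ones on 3 arrays, each read at 2 laser powers. The deposited values are log ratios, treated as log2; per the labels, the authors normalized spots of flag 0 with LOWESS. For the scanner and the software of that step: not given in the sources used here. The annotation gave 5513 of the 6912 probes 1 gene symbol, 0 several and 1399 none, and current names of 5508 came from their gene identifiers in RefSeq's R64 table, used for names alone. Probes with identical values (to 9 decimals) were joined, which gave 78 sets, and 761 probes without any value were left out. Both scans of an array were averaged, and a feature entered the tests if every array gave it a value.

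In R 4.3.3, limma 3.58.1 (lmFit, eBayes) tested the mean against 0, two-sided, with Benjamini-Hochberg adjustment over 5693 features. The fit had 2 residual and 19.1 prior degrees of freedom. It was also run on simulated independent arrays with spreads drawn from its own prior. Such a run checks the computation and does not test whether these arrays meet the fit's assumptions. Intervals are moderated 95% intervals, not adjusted for the number of features.

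Genes were chosen with earlier results of these data known, as were the lists. Named were all 7 trehalose genes, of each list the genes with an unadjusted p at or under 0.05 and 1 sign on all arrays (otherwise the 2 with the smallest p), and the 5 (or 3 per gene) nearest profiles. Other genes in the text were named after their values were seen.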

Additional observations from a re-analysis of the deposited data

How the results depend on the processing

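Across 15 alternatives, limma called 0 of the trehalose genes tested in each, with a smallest adjusted p of 0.241. Of the 97 values these gave for the 7 genes, 6 turned in sign: TPS3 without replicate 2 (0.036), TSL1 on low power scans alone (0.037), with the probe-number trend taken out (0.065) and without replicate 3 (0.059), and NTH2 without replicate 1 (-0.034) and without replicate 2 (-0.016); the cause was not tested. Leaving out 1 array gave -0.26 to 0.036 for TPS3, -0.27 to 0.059 for TSL1 and -0.034 to 0.11 for NTH2. Low power scans alone had no value on all 3 arrays for TPS3, NTH1, NTH2 and ATH1, so that alternative did not test these genes. Nor did the one restricted to values in all 6 scans, which gave the smallest adjusted p, for TPS1.

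The number of features called, 2 as reported, was 0 with arrays centred, with arrays centred and scaled, on high power scans alone, with low power values used only for gaps and without variance moderation. It was 18 of 1978 features on low power scans alone, 19 of 1794 with values in all 6 scans and 14 of 5218 among named features. With at least 2 arrays it was 6 of 5966. Of the 5693 features it was 1 with the trend taken out, 6 with robust variance, and 0 to 69 with 1 array left out. With values in all 6 scans, and again without array 2, all features shared a common standard error. The fit of 6 scans with a replicate block called 2. Features lower at an unadjusted p, 301 as reported, numbered 124 on low power scans alone, 116 with values in all 6 scans (both test fewer features), 176 without variance moderation and 153 to 319 with 1 array left out. On low power scans alone 1 trehalose gene, TPS1, was lower at that level, against 124 of 1978 features. With values in all 6 scans it was again TPS1 alone, against 116 of 1794 features. Both alternatives tested only TPS1, TPS2 and TSL1 of the trehalose genes. With 1 array left out 0 to 2 of the trehalose genes were lower, against 153 to 319 of 5693 features. The median of the glucose phosphate and UDP-glucose list was -0.66 to -0.35 with 1 array left out, and that of the trehalase control list was 0.020 on low power scans alone. Planned promoter motif counts and protein identities, with their alternative, were not run.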
